A study of Mus musculus with 6 samples.

Results

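G-protein gamma subunits were followed by RNA sequencing in 2 classes of neuron of the medial mammillary nucleus, a cell group of the mouse hypothalamus. The members were the 10 genes of the deposited expression table named Gng2, Gng3, Gng4, Gng5, Gng7, Gng8, Gng10, Gng11, Gng12 and Gng13, out of 55414 genes in all. They were taken by name, but the family was chosen by its FPKM values in these same libraries, where Gng4 was already known to differ between the classes. The members' values in PV against Drd2 are therefore a description, and none of them is offered as a test.

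The PV group was 3 libraries of neurons from male mice whose genotype label reads PV-positive, after the calcium-binding protein parvalbumin (replicates 6, 7 and 8). The Drd2 group was 3 libraries of neurons from male mice labelled Drd2-positive, after the D2 dopamine receptor (replicates 1, 2 and 3). Handling is described alike for both groups, as papain digestion of slices and aspiration of fluorescent cells into glass electrodes. No collection batch is known here, so a difference in collection between the groups cannot be told apart from a difference between the classes. The labels name no driver line, reporter or age, and no number of cells or mice behind a library, so p-values measure the spread between these libraries only.

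A G protein is a trimer of an alpha, a beta and a gamma subunit. The small gamma subunit stays bound to beta, carries a lipid on its C-terminal CaaX box that holds the pair at the membrane, and is released with beta when a receptor activates alpha. The freed beta-gamma pair then acts on inwardly rectifying potassium channels, voltage-gated calcium channels, adenylyl cyclases and phospholipase C beta, which makes it a main route by which receptors such as the D2 receptor slow neurons.

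All 10 genes encode short proteins, with coding sequences of 204 to 228 bases including the stop codon in the GENCODE M21 transcripts. The coding ends of 9 members are shown because they hold the lipid attachment site, the feature all members share and the expression data did not choose. Each line is the final 15 bases of a member's sense strand, 5′ to 3′, with the fourth codon from the stop, the place of the lipid-bearing residue, in capitals.
Gng2: TGCgccatcctttaa
Gng4: TGCaccatcctctaa
Gng5: TGCtcctttttgtag
Gng7: TGCataattctctag
Gng8: TGCaccctgctctga
Gng10: TGTgctctactttga
Gng11: TGTgtcatttcataa
Gng12: TGCatcatcttatag
Gng13: TGCaccatcctatga
In all 10 members this codon was TGC or TGT. The codon just before the stop was ctc in 4 members and ctt in 2, while cta, tta, ttg and tca were found in 1 member each. The member with tca was Gng11, which is known to carry a farnesyl group, whereas the other members are known to carry the longer geranylgeranyl group.

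Coding sequences of the 45 pairs of members were 56.8% to 77.8% identical over aligned bases (median 65.3%). The closest pair was Gng4 with Gng2, which shared 168 of 216 aligned bases, and Gng4 with Gng3 shared 163 of 228 (71.5%). Whole coding sequences of Gng4 and Gng2 are shown because Gng4 is the member that set the neuron classes apart and Gng2 is its nearest relative. Capitals in Gng4 mark bases that differ from Gng2 or are unaligned to it, and capitals in Gng2 mark bases that differ from Gng4.
Gng4: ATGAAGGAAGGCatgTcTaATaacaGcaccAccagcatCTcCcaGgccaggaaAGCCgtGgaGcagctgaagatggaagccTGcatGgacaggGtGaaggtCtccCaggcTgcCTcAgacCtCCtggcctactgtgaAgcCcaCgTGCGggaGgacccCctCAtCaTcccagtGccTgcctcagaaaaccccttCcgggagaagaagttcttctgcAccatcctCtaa
Gng2: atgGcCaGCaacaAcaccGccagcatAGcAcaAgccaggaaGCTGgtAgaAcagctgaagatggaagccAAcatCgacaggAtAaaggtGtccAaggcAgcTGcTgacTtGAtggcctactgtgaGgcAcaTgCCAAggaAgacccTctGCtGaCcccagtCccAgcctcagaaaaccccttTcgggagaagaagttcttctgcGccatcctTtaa
Gng4 opens with 12 bases that were unaligned to Gng2, and 48 further bases differ between them.

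**Figure D1:**
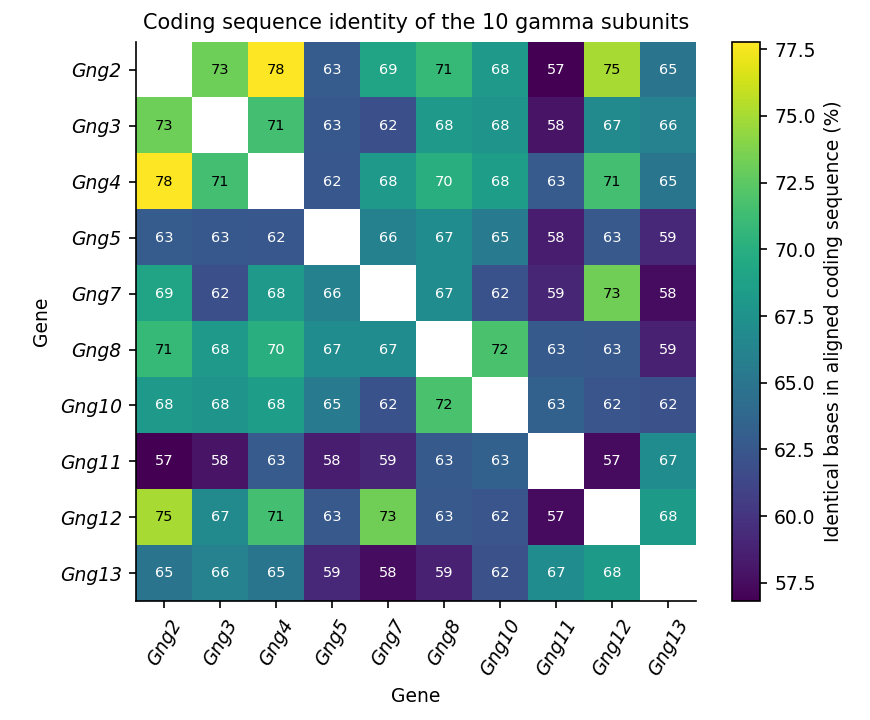
Percentage of identical bases in aligned coding sequence for each pair of the 10 gamma subunits (both axes: genes; colour and printed number: percent identity). Gng4 and Gng2 form the closest pair at 77.8%, and the lowest pair is at 56.8%.

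Facts of the whole series that bear on the members are few. Depth, read back from the smallest steps of the values, was 27.7 to 29.8 in PV and 23.8 to 33.7 in Drd2, in units of 1e6 fragments per library. Levels are in FPKM, counted per kilobase of exon and per 1e6 fragments of the library, so they can be compared between genes. Pvalb was at 349 to 563 FPKM in PV and 10.4 to 99.5 in Drd2, and Drd2 at 0 to 0.0132 FPKM in PV and 7.74 to 55.0 in Drd2; the highest Pvalb and the lowest Drd2 of the Drd2 group were both in replicate 3. All 6 neuron markers averaged at least 1 FPKM in both groups. So did all 10 microglial markers, and 7 of 8 astrocyte markers did in each group. Of 8 oligodendrocyte markers, 7 did in PV and 8 in Drd2. Transcripts of other cells were present too: microglial markers summed to 448 to 1393 FPKM in PV and 23.9 to 3689 in Drd2, and oligodendrocyte markers to 67.9 to 320 in PV and 74.2 to 1367 in Drd2. Haemoglobin and Alas2 transcripts summed to 743 to 3204 FPKM in PV and 0 to 12.1 in Drd2. Mitochondrial genes took 9.62% to 31.3% of all FPKM in PV and 3.74% to 5.20% in Drd2. In a library of bulk RNA, fewer cells of a type and less RNA per cell cannot be told apart.

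Gng3, the main gamma subunit of mature neurons (chromosome 19, 8836933 to 8839194, minus strand, mm10), was by far the most abundant member in every library. PV replicates 6, 7 and 8 held 394, 560 and 751 FPKM of it, against 933, 849 and 728 FPKM for Drd2 replicates 1, 2 and 3. Only PV replicate 8 reached into the Drd2 range, and only just. The log2 fold of Gng3, taken on log2(FPKM + 1) as PV minus Drd2 throughout, was -0.60 ± 0.37 (SE), and Gng3 did not pass the threshold of an adjusted p of 0.05 in limma. The fold was -0.41 after rescaling over nuclear protein-coding genes, which removes the mitochondrial share, and ran from -0.82 to -0.36 over 16 alternatives. Gng3 made up 86.8% ± 7.49 of the summed FPKM of the 10 members over the PV libraries, against 87.0% ± 2.17 over the Drd2 libraries (SD, n = 3 each), a difference well within the spread between libraries. The sum of the family was 461, 699 and 791 FPKM in PV and 1069, 1003 and 819 FPKM in Drd2, with Gng3 as its bulk. PV replicate 8 lay only just below Drd2 replicate 3, so the groups narrowly failed to overlap, beside 19% of all tested genes. The sum includes Gng4, which was already known to differ, and Gng3 alone overlapped.

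Exons of Gng3 overlap those of Bscl2, the seipin gene on the opposite strand, over 398 of 1643 bases. Bscl2 averaged 33.6 ± 9.10 FPKM over the PV libraries, against 59.9 ± 4.62 over the Drd2 libraries (SD, n = 3 each), far below Gng3, and no source used here says whether counting used strand.

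Gng4, a gamma subunit of brain (chromosome 13, 13784059 to 13827896, plus strand), had the largest log2 fold in size between the neuron classes among the members tested. PV replicates 6, 7 and 8 held 0.171, 0.0865 and 1.44 FPKM of it, against 21.6, 25.8 and 26.3 FPKM for Drd2 replicates 1, 2 and 3. The lowest Drd2 library lay far above the highest PV library, and the 3 Drd2 libraries lay close together, also replicate 3 with its high Pvalb and low Drd2. As whole reads these levels were 17, 8 and 136 in PV and 2430, 2586 and 2092 in Drd2. The log2 fold of Gng4 was -4.13 ± 0.63 (SE). Gng4 was the third most abundant member in Drd2 by its mean: it averaged 0.564 ± 0.756 FPKM over the PV libraries, against 24.5 ± 2.59 over the Drd2 libraries (SD, n = 3 each). Within the family it took 0.0770% ± 0.0914 of the summed FPKM in PV and 2.60% ± 0.597 in Drd2. With Gng3 left out, that share was 0.256%, 0.0621% and 3.55% in PV and 15.8%, 16.8% and 29.1% in Drd2.

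**Figure D2:**
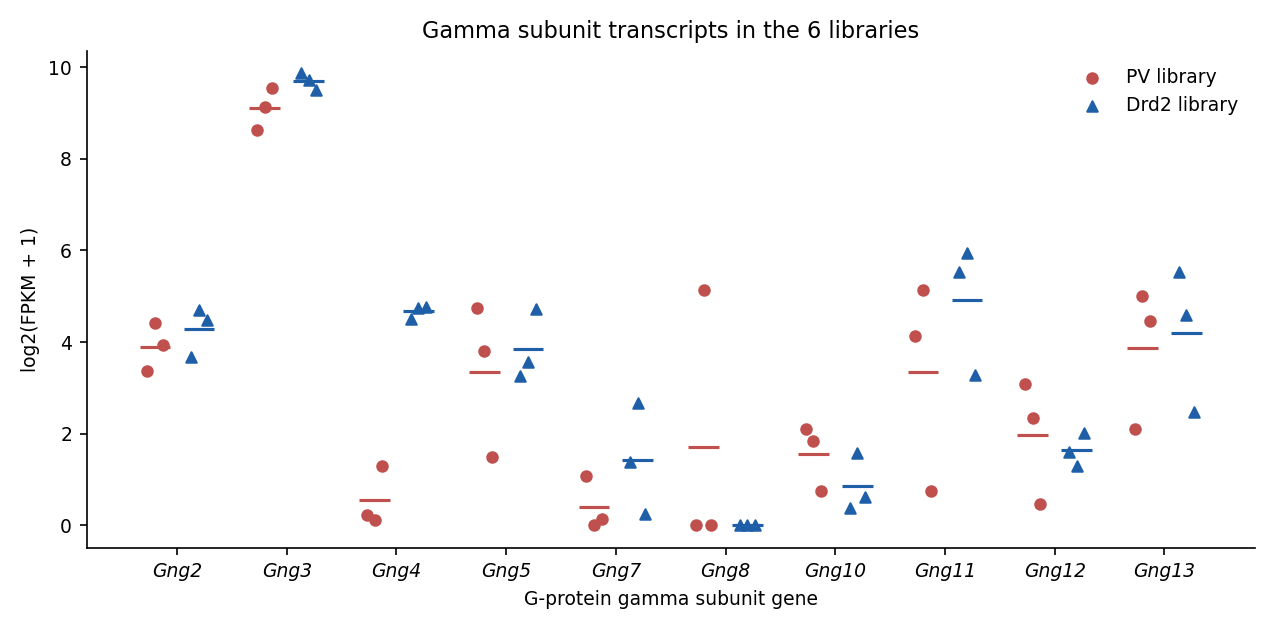
Levels of the 10 gamma subunit genes (x axis) as log2(FPKM + 1) (y axis), with a point for each of 3 PV libraries (circles) and 3 Drd2 libraries (triangles) and a line at the group mean on this scale. Gng3 lies above all other members in both groups, the Gng4 groups stand apart, and Gng8 is above 0 in a single PV library.

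In the fit over all genes, 1 of the 9 members tested passed the threshold, Gng4, against 0.261% of the 11478 genes tested (0.218% lower in PV and 0.0436% higher in PV). Because that contrast led to the choice of the family, nothing is read from this count. No other member separated the groups, against 19% of all tested genes whose groups did not overlap. Across the 9 members 7 folds were below 0 and 2 above it, with a median of -0.50, where 61.6% of all tested genes were below 0 with a median of -0.28. Gng8 was the member not tested, since it reached 1 FPKM in only 1 library. The Gng4 call held in 6 of 16 alternatives. It was lost when any one Drd2 library, PV replicate 6, or PV replicate 7 together with Drd2 replicate 3 was left out. It was also lost with a pseudocount of 0.1 FPKM, with no filter on low values, after rescaling to TPM or over nuclear protein-coding genes, and with limma voom on reads. The fold ran from -6.39 to -2.41 over these 16; its sign is fixed by groups that do not overlap and is no sign of stability.

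**Figure D3:**
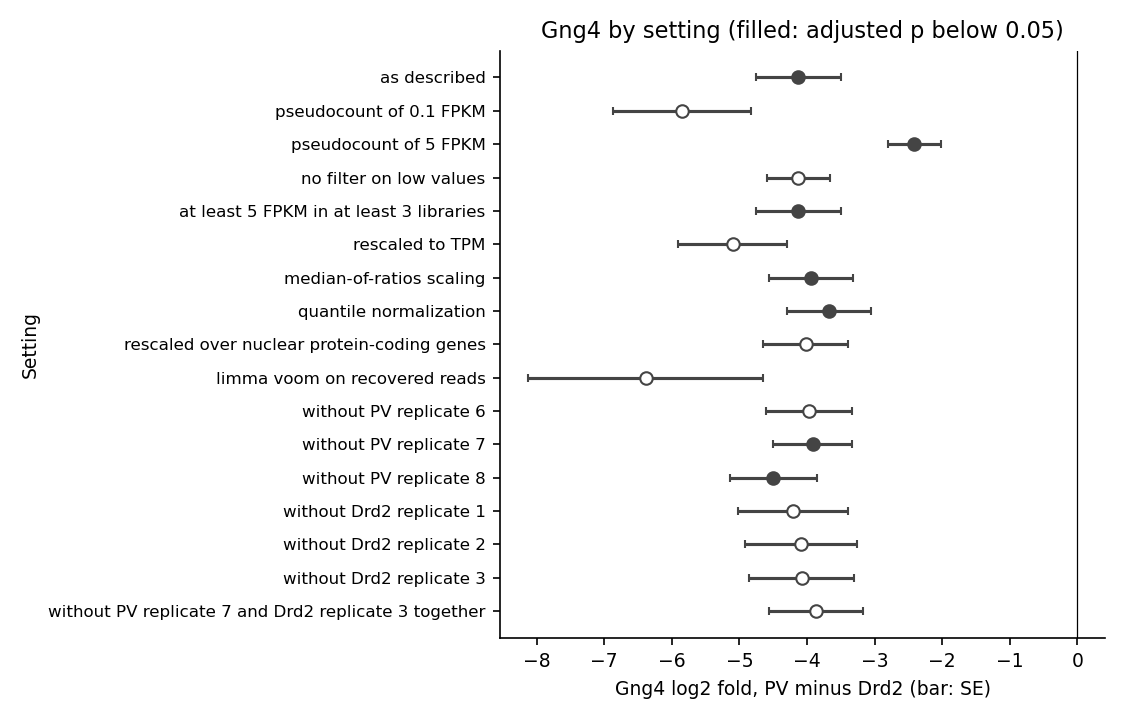
Gng4 log2 fold, PV minus Drd2 (x axis, bars are SE), under the settings described and 16 alternatives (y axis). Filled points had an adjusted p below 0.05 in limma; all folds lie below 0, between -6.39 and -2.41, while the call held in 6 of the 16 alternatives.

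The genes whose profile over the 6 libraries lay nearest to that of Gng4 came from 10139 named genes. Nearness was the root mean square difference of log2(FPKM + 1) after centring each gene on its mean, so these genes share the Gng4 pattern by selection. They were Hpcal1, a neuronal calcium sensor (difference 0.24), the ethanolamine kinase Etnk2 (0.33), the vesicle membrane protein Vat1 (0.40), the zinc-finger protein Zcchc12 (0.43) and the acyltransferase Agpat4 (0.46). Etnk2 was at 0.0367, 0 and 0.201 FPKM in PV and 11.9, 20.8 and 17.0 FPKM in Drd2, and was lower than Gng4 in each PV library. Hpcal1, the nearest by profile, was more abundant, at 17.8, 11.6 and 33.9 FPKM in PV and 263, 308 and 260 FPKM in Drd2. Like Gng4, it was highest in PV in replicate 8. The genes nearest to Gng3 were Prdx2, a peroxide-reducing enzyme (0.12), the ubiquitin ligase Ube3c (0.13), Alkbh7 (0.13), the 14-3-3 protein Ywhaq (0.14) and the ribosomal protein Rpl14 (0.14).

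Gng2, the nearest relative of Gng4 and a widely used partner of beta subunits in brain (chromosome 14, 19872559 to 19977627, minus strand), did not share its pattern. It was at 9.25, 20.2 and 14.3 FPKM in PV and at 11.8, 25.1 and 21.5 FPKM in Drd2, so the groups overlapped broadly. Its log2 fold was -0.39 ± 0.52 (SE), not past the threshold. In PV it exceeded Gng4 in every library, whereas in Drd2 its FPKM lay below that of Gng4 in all 3. The gap was narrow in Drd2 replicate 2, at 25.1 against 25.8 FPKM. As reads, not scaled by exon length, Gng2 exceeded Gng4 in Drd2 replicate 2 (3310 against 2586) and replicate 3 (2247 against 2092). Over 897 of its 4390 exon bases Gng2 overlaps Gm48283 on the opposite strand, which is listed at 0 in all 6 libraries.

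Gng7, known in the striatum as the partner of the olfactory-type alpha subunit Gnal in dopamine receptor signalling (chromosome 10, 80948624 to 81014945, minus strand), was scarce. It was at 1.10 and 0.0932 FPKM in PV replicates 6 and 8 and listed at 0 in PV replicate 7, and was at 1.59, 5.40 and 0.188 FPKM in Drd2. Drd2 replicate 3, with 17 reads, lay below PV replicate 6, with 124. The log2 fold was -1.03 ± 0.70 (SE), not past the threshold. Gnal itself averaged 9.98 ± 3.21 FPKM over the PV libraries, against 4.24 ± 3.29 over the Drd2 libraries (SD, n = 3 each), and also did not pass (limma adjusted p = 0.487).

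The members known from sensory cells behaved differently from each other. Gng13, a gamma subunit of taste cells, olfactory neurons and retinal bipolar cells (chromosome 17, 25717171 to 25719406, plus strand), was at 3.30, 31.3 and 21.1 FPKM in PV and at 45.0, 22.9 and 4.56 FPKM in Drd2. It was high and low in both groups, with PV replicate 6 and Drd2 replicate 3 the low libraries, and the log2 fold was -0.33 ± 0.93 (SE), not past the threshold. Leaving out PV replicate 6 turned that fold to 0.55 and leaving out Drd2 replicate 1 to 0.33. Over 399 of its 773 exon bases Gng13 overlaps the replication gene Chtf18 on the opposite strand, which was at most at 0.268 FPKM.

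Gng8, a gamma subunit of olfactory and vomeronasal neurons (chromosome 7, 16891786 to 16895436, plus strand), was found in a single library. It was at 34.1 FPKM, or 1437 reads, in PV replicate 7, and is listed at 0 in PV replicates 6 and 8 and in all 3 Drd2 libraries. In that library it was the second most abundant member after Gng3, just above Gng11 at 34.0 FPKM. Genes at 10 FPKM or more in 1 library and listed at 0 in the other 5 were not rare: 33 were of that kind in PV replicate 7, and 33 to 80 in each library.

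**Figure D4:**
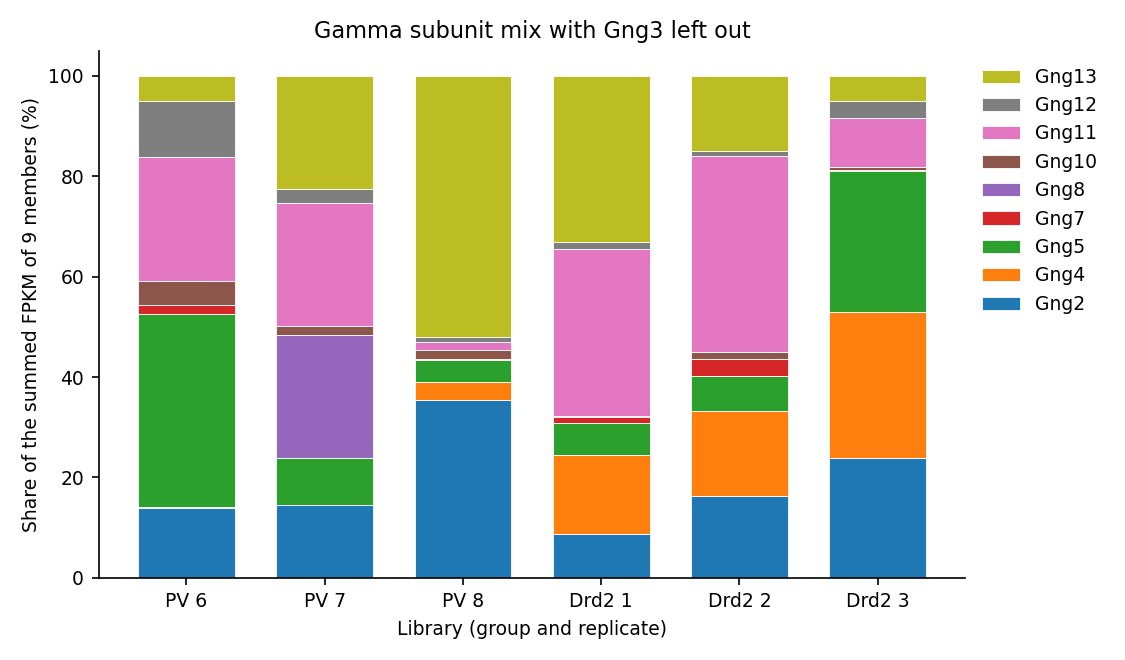
Share of each member in the summed FPKM of the 9 members other than Gng3 (y axis, percent) in each library (x axis; 3 PV libraries, then 3 Drd2 libraries; colours are genes). Gng4 takes at most 3.55% in PV, against 15.8% to 29.1% in Drd2, Gng8 appears in PV replicate 7 alone, and Gng5, Gng11 and Gng13 take very different shares in libraries of 1 group.

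The broadly expressed members varied more within the groups than between them. Gng5, found in most tissues (chromosome 3, 146499807 to 146505572, plus strand), was at 25.7, 12.9 and 1.81 FPKM in PV and at 8.60, 10.8 and 25.4 FPKM in Drd2. Its log2 fold of -0.50 ± 0.84 (SE) did not pass, and turned to 0.42 without PV replicate 8. Gng5 was ordered within each group as the microglial markers were, whose sums were 1393, 1002 and 448 FPKM in PV and 23.9, 92.9 and 3689 FPKM in Drd2. It was also ordered within each group as the astrocyte markers were, which summed to 702, 646 and 583 FPKM in PV and 159, 364 and 599 FPKM in Drd2. Of 80 pairs of a member and a marker list, 4 matched in order within both groups, and these 2 were picked out after the values were seen. The part of these cells in the Gng5 level was not tested. Its processed pseudogene Gng5-ps reached 1.47 FPKM in PV and 4.30 in Drd2, and reads may be shared between them.

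Gng11, the farnesylated member (chromosome 6, 4003904 to 4008445, plus strand), was at 16.5, 34.0 and 0.691 FPKM in PV and at 45.3, 60.2 and 8.76 FPKM in Drd2. The groups overlapped, with PV replicate 8 and Drd2 replicate 3 low, and the log2 fold was -1.58 ± 1.10 (SE), not past the threshold. Without 1 library it ran from -2.47, without PV replicate 7, to -0.29, without PV replicate 8. The 6 libraries stood in the same order for Gng11 as for the summed oligodendrocyte markers, at 299, 320 and 67.9 FPKM in PV and 362, 1367 and 74.2 FPKM in Drd2. This was the single match of order over all 6 libraries among 80 pairs of a member and a marker list, and it was picked out after the values were seen. The part of oligodendrocyte RNA in the Gng11 level was not tested. Within each group Gng11 was also ordered as the blood markers were. These summed to 3002, 3204 and 743 FPKM in PV and 0.336, 12.1 and 0 FPKM in Drd2. The part of blood RNA in the Gng11 level was not tested either.

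Gng12, a widespread member known as a substrate of protein kinase C (chromosome 6, 66896397 to 67021350, plus strand), was at 7.43, 4.07 and 0.388 FPKM in PV and at 2.01, 1.45 and 3.04 FPKM in Drd2. The log2 fold was 0.33 ± 0.79 (SE), not past the threshold, and -0.23 without PV replicate 6. Gng10 (chromosome 4, 59035088 to 59041903, plus strand), also widely expressed, was at 3.27, 2.58 and 0.671 FPKM in PV and at 0.293, 1.98 and 0.543 FPKM in Drd2, with a log2 fold of 0.70 ± 0.64 (SE), not past the threshold. Both members were lowest in PV in replicate 8, as were Gng5 and Gng11. The Gng10 level is uncertain, since 946 of its 1314 exon bases are also exon of Gm20503 on the same strand, which is listed at 0 in all 6 libraries.

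By mean level, the order in PV was Gng3, Gng13, Gng11, Gng2, Gng5, Gng12, Gng10 and Gng4, setting aside Gng7 and Gng8, which have libraries listed at 0. In Drd2 it was Gng3, Gng11, Gng4, Gng13, Gng2, Gng5, Gng7, Gng12 and Gng10. In both groups the range of Gng3 lay above that of the next member. Below Gng3 the ranges of neighbours overlapped throughout in PV. In Drd2 they overlapped except at the step between Gng5, at 8.60 FPKM or more, and Gng7, at 5.40 FPKM or less. Of the 10 members, 8, 8 and 5 reached 1 FPKM in PV replicates 6, 7 and 8, and 8, 9 and 7 did in Drd2 replicates 1, 2 and 3.

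None of the 45 tested partner genes of the gamma subunits passed the threshold in limma. The beta subunits, which form the stable pair with gamma, were led by Gnb1 and Gnb5. Gnb1 was at 77.5, 34.0 and 144 FPKM in PV and at 36.0, 40.4 and 39.4 FPKM in Drd2, with PV replicate 7 below all 3 Drd2 libraries. Its log2 fold was 0.89 ± 0.53 (SE), with a limma adjusted p of 0.514. Gnb5, which in neurons pairs with RGS proteins in place of gamma, averaged 59.8 ± 7.34 FPKM over the PV libraries, against 75.8 ± 24.0 over the Drd2 libraries (SD, n = 3 each; limma adjusted p = 0.802). Gnb2 averaged 26.2 ± 15.4 FPKM over the PV libraries, against 27.1 ± 13.1 over the Drd2 libraries (limma adjusted p = 0.983). Gnb3, the beta subunit of cones, reached 4.23 FPKM in Drd2 replicate 1 alone, and Gnb4 stayed under 1 FPKM in every library, so neither was tested. The beta subunits summed to 157, 117 and 241 FPKM in PV and 124, 172 and 134 FPKM in Drd2, and the groups overlapped.

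Of 16 alpha subunit genes 11 were tested and none passed. The 3 with the smallest p were Gnai2, Gnal and Gnai1. Gnai2 is an inhibitory alpha subunit also abundant in microglia. It averaged 24.1 ± 22.7 FPKM over the PV libraries, against 52.4 ± 28.2 over the Drd2 libraries (SD, n = 3 each). It did not pass (limma adjusted p = 0.456). By library it was at 50.0, 14.1 and 8.04 FPKM in PV and 25.6, 49.8 and 81.9 FPKM in Drd2. Microglial markers summed to 1393, 1002 and 448 FPKM in PV and 23.9, 92.9 and 3689 FPKM in Drd2. The part of microglial RNA in the Gnai2 level was not tested. Gnai1 averaged 26.4 ± 14.3 FPKM over the PV libraries, against 13.1 ± 5.14 over the Drd2 libraries (limma adjusted p = 0.519). Among the 2 transducin-type gamma genes outside the member list, the rod gene Gngt1 is listed at 0 in all libraries. Gngt2, known as the cone gamma subunit, was at 30.4, 8.27 and 7.57 FPKM in PV. In Drd2 it is listed at 0 for replicate 1, while replicate 2 held 4.93 FPKM of it and replicate 3 held 10.5 FPKM. Gngt2 did not pass (limma adjusted p = 0.490). Within each group its order was that of the microglial sums above, and also that of the astrocyte sums. These matches were picked out after the values were seen. The part of microglial or astrocyte RNA in the Gngt2 level was not tested.

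Of 25 names for effectors of beta-gamma 23 were in the table and 16 were tested, none past the threshold. Adenylyl cyclases and phospholipase C betas were listed as whole families, so a listed gene, Plcb4 among them, need not itself respond to beta-gamma. Plcb4, a phospholipase C beta, was at 32.9, 61.1 and 41.8 FPKM in PV and at 15.4, 10.8 and 16.2 FPKM in Drd2. The groups did not overlap, beside 19% of all tested genes, and the log2 fold was 1.59 ± 0.45 (SE, limma adjusted p = 0.185). The kinase subunit Pik3cb averaged 4.08 ± 2.29 FPKM over the PV libraries, against 0.528 ± 0.534 over the Drd2 libraries (SD, n = 3 each; limma adjusted p = 0.310). The adenylyl cyclase Adcy3 was at 0.446 FPKM in PV replicate 6 and is listed at 0 in the other PV libraries, against 1.34, 2.78 and 2.38 FPKM in Drd2. The groups did not overlap, and the log2 fold was -1.46 ± 0.52 (SE; limma adjusted p = 0.275). The inwardly rectifying potassium channel genes of this list were added after their values were seen. Kcnj9 was at 39.0, 28.3 and 27.1 FPKM in PV and 26.8, 14.8 and 19.4 FPKM in Drd2. Kcnj3 was at 15.1, 28.2 and 13.2 FPKM in PV and 8.95, 9.81 and 3.43 FPKM in Drd2. Kcnj6 was at 7.38, 0.0331 and 1.94 FPKM in PV and 0.124, 4.05 and 4.35 FPKM in Drd2. None of Kcnj9, Kcnj3 and Kcnj6 passed (limma adjusted p = 0.588, 0.415 and 0.980). Kcnj5 was at most at 0.00633 FPKM and was not tested.

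The 4 tested genes of lipid attachment and CaaX processing did not pass either. Fnta, the alpha subunit shared by farnesyl and geranylgeranyl transferase, averaged 43.6 ± 26.2 FPKM over the PV libraries, against 62.1 ± 23.3 over the Drd2 libraries (SD, n = 3 each; limma adjusted p = 0.683). Fntb, the farnesyl transferase beta subunit, averaged 4.53 ± 4.01 FPKM over the PV libraries, against 9.75 ± 1.90 over the Drd2 libraries (limma adjusted p = 0.505). The CaaX protease Rce1 was at 8.52, 44.7 and 1.03 FPKM in PV and 16.2, 6.37 and 27.6 FPKM in Drd2 (limma adjusted p = 0.824).

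Among 13 assembly partners and regulators 10 were tested and none passed. Rgs7bp, which anchors the RGS7 family with Gnb5 at the membrane, was at 65.5, 42.5 and 75.0 FPKM in PV and at 25.1, 8.59 and 17.4 FPKM in Drd2. Its groups did not overlap, and its log2 fold was 1.86 ± 0.50 (SE; limma adjusted p = 0.170). Rgs9, an RGS protein of that family known for acting on D2 receptor signalling in striatum, averaged 1.62 ± 1.85 FPKM over the PV libraries, against 5.67 ± 2.97 over the Drd2 libraries (SD, n = 3 each; limma adjusted p = 0.456). Gpsm3, a modulator of inhibitory alpha subunits found mainly in blood and immune cells, averaged 1.76 ± 0.597 FPKM over the PV libraries, against 0.352 ± 0.588 over the Drd2 libraries (limma adjusted p = 0.448).

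**Figure D5:**
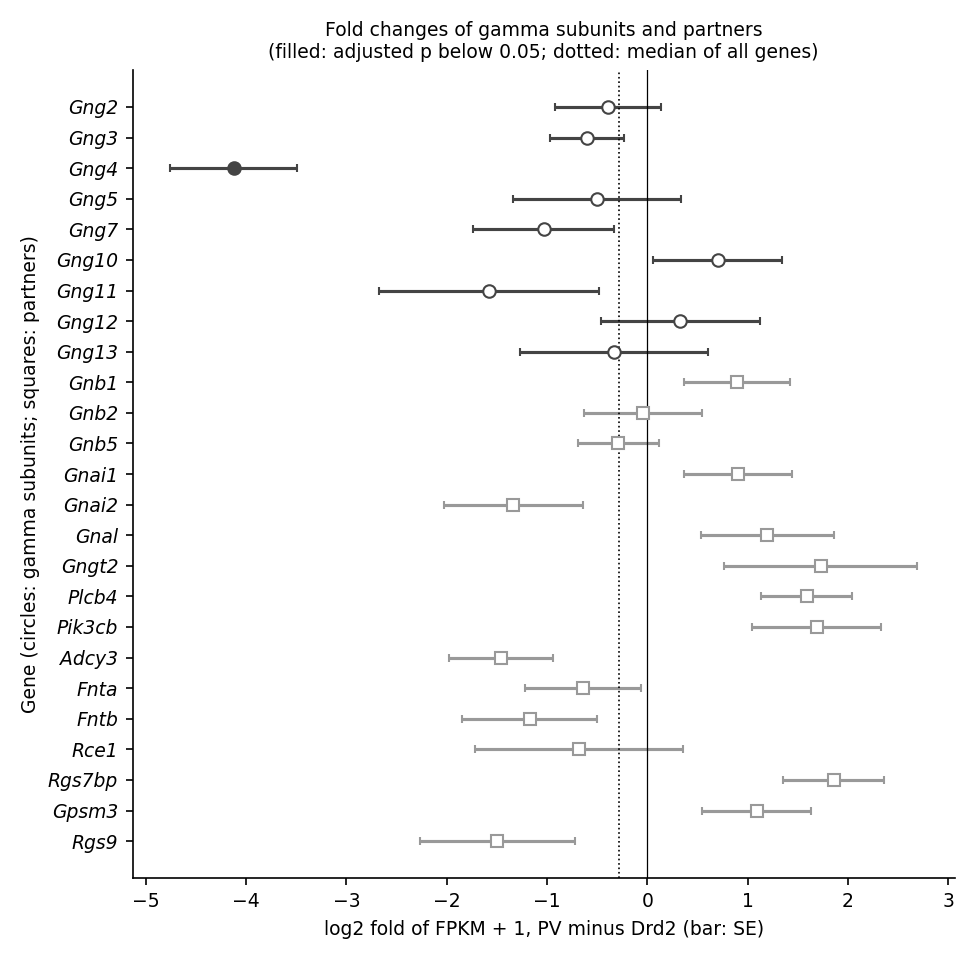
Log2 fold of FPKM + 1, PV minus Drd2 (x axis, bars are SE), for the 9 tested gamma subunits (circles) and for tested partner genes (squares), with the median of all tested genes as a dotted line at -0.28. Gng4 at -4.13 is the only filled point, meaning an adjusted p below 0.05 in limma. The plotted partners run from -1.49 to 1.86, and all 45 tested partners from -1.88 to 1.86.

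Over the 45 partner genes tested, 0 passed in limma and 0 in limma voom on reads, beside 0.261% of all genes in limma, and 4 had an unadjusted p under 0.05, beside 12.8% of all genes. Their median log2 fold was 0.23, with 25 above 0 and 20 below, beside a median of -0.28 over all tested genes. The groups did not overlap in 6 partners higher in PV, which were Plcb4, Pik3cb, Kcnj3, Kcnj9, Rgs7bp and Gpsm3, beside 5.83% of all tested genes. They did not overlap in 1 partner lower in PV, Adcy3, beside 13.1% of all tested genes.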

How the data were processed

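The deposited table holds FPKM values made by the authors, 1 column per library, for 55414 mouse Ensembl genes. The submitters' processing notes name mm10, hg38 and GRCh38 as builds and STAR (no version) as a tool; quantifier, strand use and annotation release are not given. In GENCODE M21 (mm10), used for positions, exon lengths and coding sequences, 94.1% of the identifiers were found. FPKM times exon length moved in steps of 1 read: of values up to 20 reads, 97.9% to 98.8% per library came within 0.01 of a whole read. Reads given in the text come from these steps; they describe counting only, since without molecular identifiers PCR copies are counted too. The 11478 genes at 1 FPKM or more in 3 or more of the 6 libraries were compared as log2(FPKM + 1) by the 2-sided trend test of limma 3.58.1 in R 4.3.3, p-values being adjusted over all of them (Benjamini-Hochberg, threshold 0.05); folds of weakly expressed genes are understated on this scale. Coding sequences were aligned globally, taking for each gene the principal complete transcript. Named were all members, Pvalb and Drd2, all beta subunits and the 3 genes of smallest p per partner list. The 5 profiles nearest to Gng4 and to Gng3 were also named. Kcnj3, Kcnj5, Kcnj6, Kcnj9 and the order matches with cell markers were added after their values were seen. Members and lists were chosen with earlier results of these data known. Alternatives were other pseudocounts, filters, scalings, limma voom on recovered reads, and leaving out each library.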

Additional observations from a re-analysis of the deposited data

How the results depend on the processing

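Over all genes 30 passed in limma, 25 lower and 5 higher in PV. With a pseudocount of 0.1 FPKM 4 passed, with 5 FPKM 68, with quantile normalization 59 (41 lower, 18 higher), after rescaling over nuclear protein-coding genes 14 (10 lower, 4 higher), and with voom 22 (15 lower, 7 higher). With no filter, leaving out only genes listed at 0 throughout, 0 of 26063 passed (1509 at an unadjusted p under 0.05). Without 1 library the count ran from 1 to 56. It was 2, 3 and 1 without Drd2 replicates 1, 2 and 3, and 56 without PV replicate 6. Without PV replicate 7 and Drd2 replicate 3 together, added after the data were seen, it was 18. The number of members past the threshold, 1 as described, was 0 with a pseudocount of 0.1 FPKM, no filter, TPM, rescaling over nuclear protein-coding genes, voom and the joint omission, and 0 to 1 without 1 library. No partner gene passed in limma under any of the 16 alternatives. The median fold of all genes was 0.01 under quantile normalization, -0.12 under median-of-ratios scaling and -0.50 under TPM. Without 1 library the folds ran from -1.20 to 0.42 for Gng5 (positive without PV replicate 8), -0.23 to 1.08 for Gng12 (negative without PV replicate 6), -1.19 to 0.55 for Gng13 (positive without PV replicate 6 or Drd2 replicate 1), -1.80 to 0.44 for Rce1 (positive without PV replicate 8) and -0.53 to 0.25 for Gnb2. Gnb2 also turned to 0.15 under median-of-ratios scaling, 0.22 under quantile normalization and 0.13 after rescaling over nuclear protein-coding genes. The causes were not tested. As a share of reads in place of FPKM, Gng4 made up 0.0246% to 0.362% of the family in PV and 4.06% to 5.94% in Drd2. No paired analysis was possible because the groups share no replicate number. At 3 against 3 libraries, a call that misses the threshold does not show that levels were equal.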
